A study of Mus musculus with 11 samples.

Results

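Cytosolic ribosomal protein genes are described here in the developing mouse retina. They were taken by symbol, as every gene whose name is Rpl, Rps or Rplp followed by a number and at most 1 further letter of a, x, y or l and a number, without the pseudogenes that carry the suffix -ps. This rule found 86 genes among the 25311 genes of the count table, of which 51 belong to the large (60S) subunit, including the 3 stalk proteins Rplp0, Rplp1 and Rplp2, and 35 to the small (40S) subunit. GENCODE M21 annotates 80 of them as protein coding. The other 6 (Rps3a2, Rps3a3, Rps4l, Rps12l1, Rpl6l and Rpl32l) are annotated there as processed pseudogenes although their names do not say so, and they held 1.58% of the UMIs of the 86 genes.

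Retinas of C57BL/6J mice were dissociated at postnatal day 10 and profiled by inDrop, a droplet assay that counts RNA molecules of single cells by unique molecular identifiers (UMIs). The 11 mice formed 4 groups. Control mice (n = 3) received vehicle (PBS). Phase I ROP mice (n = 3) received streptozotocin (STZ), a toxin of pancreatic β-cells, which gives neonatal hyperglycemia with delayed growth of the retinal vessels. This is a model of the first phase of retinopathy of prematurity in which no oxygen is given. Phase I ROP mice on the ω-3 diet (n = 2) and on the ω-6 diet (n = 3) also received STZ. They were nursed by dams on feed enriched in ω-3 or in ω-6 long-chain polyunsaturated fatty acids. The comparisons were Phase I ROP over control and ω-6 diet over ω-3 diet, and no diet group was set against the controls. The paper calls the mice littermates. It also limits litters given STZ to fewer pups than other litters, and the diets went to the nursing dams. Litter and dam of single mice are not given, so they may differ between the groups compared, which was not tested.

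Ribosomal proteins assemble with ribosomal RNA in the nucleolus into the 40S and 60S subunits, which translate messenger RNA in the cytosol. The proteins are needed in near equal numbers, and their messenger RNAs commonly start with a C followed by a run of pyrimidines, the terminal oligopyrimidine (TOP) tract, through which mTOR and the binding protein LARP1 control their translation and their stability. In the retina at this age, rods and bipolar cells are still maturing and form synapses and outer segments, which draws heavily on protein synthesis.

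The letters around the annotated start of 7 of the genes are given first. These genes are among those named below, in bipolar and amacrine cells (Rps3a1, Rplp2, Rpl35 and Rpl28), in the difference between classes (Rpl41 and Rps27) and in Müller glia (Rps27l). Whether the letters go with the values was not tested. The sequences are those of RefSeq on GRCm38.p6, from 35 bases before to 25 bases from the start, 5′ to 3′ on the gene's strand. Capitals mark a C followed by at least 6 bases that are each C or T, wherever such a tract lies within 25 bases of the start.
Rps3a1: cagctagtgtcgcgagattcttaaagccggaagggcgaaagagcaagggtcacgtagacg
Rplp2: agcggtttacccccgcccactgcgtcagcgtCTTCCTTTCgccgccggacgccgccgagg
Rpl35: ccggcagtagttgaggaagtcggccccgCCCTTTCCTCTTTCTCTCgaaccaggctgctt
Rpl28: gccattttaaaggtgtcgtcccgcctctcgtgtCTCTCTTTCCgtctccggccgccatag
Rpl41: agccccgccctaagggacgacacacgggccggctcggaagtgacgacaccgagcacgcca
Rps27: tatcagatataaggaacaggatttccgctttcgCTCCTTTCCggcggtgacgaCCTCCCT
Rps27l: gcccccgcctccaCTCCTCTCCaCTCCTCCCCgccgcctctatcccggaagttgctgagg
These stretches lie at chr3:86142644-86142703 (minus strand), chr7:141447616-141447675 (plus), chr2:39005107-39005166 (minus), chr7:4792930-4792989 (plus), chr10:128549144-128549203 (minus), chr3:90213624-90213683 (minus) and chr9:66946051-66946110 (plus). Such tracts, of 7 to 18 letters, stand in 5 of the 7, the longest in Rpl35, and no tract of this kind was in the windows of Rps3a1 and Rpl41. Rps27l holds 2 tracts, both before the annotated start. In the other 4 a tract spans the start, and Rps27 holds a second one after it. In GENCODE M21 Rps3a1 begins at chr3:86142702 and Rpl41 at chr10:128549305 on the minus strand. Both positions lie upstream of the RefSeq starts, outside the 25 bases searched. The Rps3a1 position falls within the printed letters, and no such tract follows it in them. The Rpl41 position lies beyond the printed letters, so that a tract there would not have been seen.

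A RefSeq promoter was matched by symbol for 61 of the 86 genes, of which 10 had more than 1 annotated start and were read at the first listed. Such a pyrimidine tract was in 33 of the 61 windows (54.1%) and in 22.7% of the 27025 promoters of all genes. The letters CCGGAAG, on either strand of the 300 bases from 250 before to 50 after the start, were in 23 of the 61 (37.7%) and in 9.12% of all promoters. TATAAA in the 50 bases before the start was in 1 of the 61 (1.64%) and in 2.88% of all promoters. These are matches of letters and not measured sites.

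Cells were sorted into classes by clustering and by canonical markers. Of 20033 cells with more than 300 genes, 10178 were called rods, 3596 bipolar cells, 3287 amacrine cells, 1425 Müller glia and 1126 cones, and these 5 classes had at least 10 cells in every mouse. Total UMIs per mouse ran from 2563064 to 6516478. The median cell held 1550 to 2341 UMIs in the control libraries, 1003.5 to 1190 in the Phase I ROP libraries and 1386.5 to 2215 in the libraries of the diets. Control libraries stood apart from all others in 3 genes. The small nuclear RNA Rn7sk was at 193 to 290.2 CPM (counts per 1000000 UMIs) in the control libraries against 1.15 to 16.2 CPM in the other 8. The mitochondrial ribosomal RNA mt-Rnr2 was at 28195 to 41188 CPM against 3060 to 8232 CPM, and the immediate early gene Fosb at 0.390 to 0.890 CPM against 116 to 231 CPM. Of 18872 barcodes, 1157 were found in more than 1 library.

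The 86 genes held 4.91% of all UMIs. Levels are given as CPM, where 1 UMI stands for 1 RNA molecule read at its 3′ end, so that they were not divided by length. The highest over all cells was Rpl41, which encodes a very short basic peptide of the 60S subunit, at 1602 ± 139.9 CPM (mean ± SD over 11 mice). It was followed by Rps14 (1181 ± 178 CPM), Rps24 (1145 ± 82.7 CPM), Rpl4 (1041 ± 98.5 CPM) and Rps28 (1022 ± 114 CPM), whose ranges over mice overlapped. These 5 genes made up 12.3% of the ribosomal protein UMIs, and the median gene stood at 567 CPM. At the other end were Rps27l (86.8 ± 11.2 CPM), a paralog of Rps27 that p53 induces, Rpl7l1 (44.4 ± 3.11 CPM), Rps4l (39.9 ± 17.0 CPM), Rpl32l (24.4 ± 10.6 CPM) and Rpl3l (1.96 ± 1.48 CPM), the paralog of Rpl3 known from striated muscle. Rpl3l, with 94 UMIs in the series, passed the filter on low counts in none of the comparisons, and the 85 others were tested in at least 1 class.

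Reads of these genes are hard to place, since retrocopies of ribosomal protein genes are common in the genome. Pseudogenes with the suffix -ps, 211 in number, held 27.7% as many UMIs as the 86 genes. The last 200 bases of the longest transcript were at least 95% identical over at least 150 bases to a transcript of another gene for 38 of the 86 (37 genes for Rps2, 34 for Rpl29 and 21 for Rps12), and 48 had no such copy. Levels of single genes with copies are therefore uncertain, among them Rps3a1 with Rps3a2 and Rps3a3, Rps12 with Rps12l1, Rpl6 with Rpl6l and Rpl32 with Rpl32l.

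The share of UMIs from the 86 genes differed between classes, which is given as a description because the classes were formed from the same counts. Over the 11 mice the median share was 3.92% in amacrine cells, 4.22% in cones, 5.12% in rods, 5.50% in bipolar cells and 5.59% in Müller glia. The range over mice was 3.70% to 5.46% in amacrine cells and 4.98% to 6.998% in bipolar cells, and neighbours in this order overlapped. Smaller classes are given by their range alone. Retinal ganglion cells (96 cells, the deepest at a median of 13619 UMIs) had 2.31% to 3.25%, horizontal cells (31 cells) 2.14% to 3.16%, pigment epithelium (75 cells) 2.62% to 4.47%, astrocytes (47 cells) 5.13% to 7.49%, microglia (59 cells) 5.32% to 12.2% and endothelial cells (113 cells) 8.14% to 13.2%. The endothelial share was above that of rods, cones, bipolar cells, amacrine cells and Müller glia in every mouse.

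**Figure D1:**
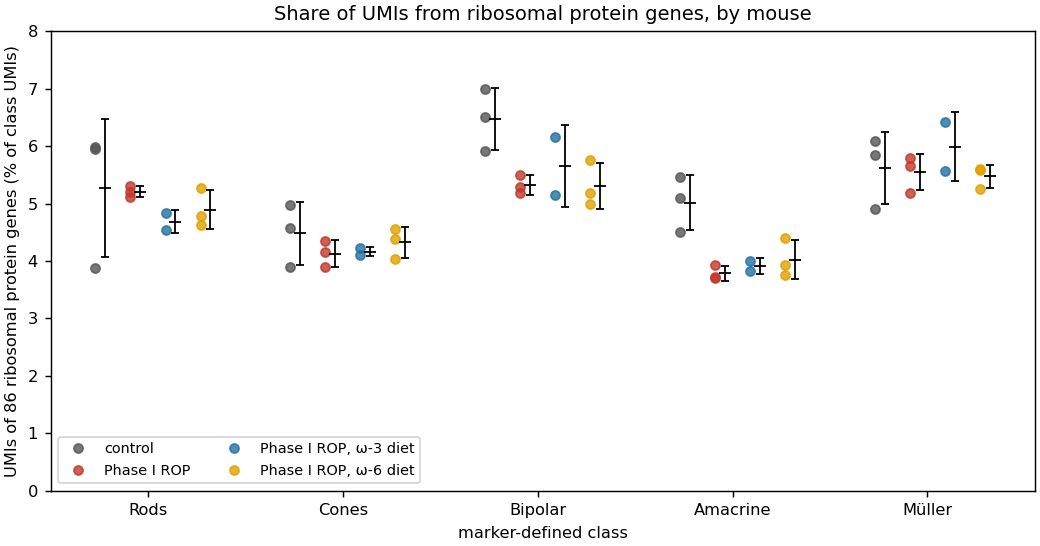
Share of a class's UMIs that came from the 86 ribosomal protein genes (vertical axis, %), in 5 marker-defined classes (horizontal axis) of each mouse (points, coloured by group), with the mean and SD over mice (black). In bipolar and amacrine cells the 3 control mice lie above the 3 Phase I ROP mice, and in rods 1 control mouse at 3.88% lies far below the other 2.

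Among mice, the share in bipolar cells was 6.51%, 5.91% and 6.998% in the controls and 5.18%, 5.50% and 5.29% in Phase I ROP. In amacrine cells it was 5.09%, 4.50% and 5.46% and 3.70%, 3.92% and 3.73%. In both classes the control and Phase I ROP mice did not overlap, and the mean was 17.8% lower in bipolar cells and 24.6% lower in amacrine cells. Rods had 5.95%, 3.88% and 5.99% in the controls, where the second mouse stood apart, and 5.12%, 5.20% and 5.30% in Phase I ROP. Cones (4.48% ± 0.545 and 4.13% ± 0.228, mean ± SD, n = 3 and 3) and Müller glia (5.62% ± 0.632 and 5.54% ± 0.317, n = 3 and 3) overlapped. On the ω-3 diet and the ω-6 diet the shares were 4.68% ± 0.203 and 4.89% ± 0.334 in rods, 5.66% ± 0.718 and 5.31% ± 0.403 in bipolar cells, and 3.91% ± 0.133 and 4.03% ± 0.337 in amacrine cells (n = 2 and 3), and the mice of the diets overlapped in all 3.

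Classes also differed in how the pool of ribosomal protein UMIs was divided among genes. The 5 genes with the widest range of pool share over the 5 classes were Rps14, Rpl41, Rplp0, Rplp1 and Rpl10. Rps14, a 40S protein at the platform of the subunit, made up 2.96% of the pool in rods and 1.89% in amacrine cells (mean over 11 mice). Its mice overlapped, at 1.95% to 3.42% and 1.49% to 2.34%. Rpl41 ran from 2.75% in bipolar cells to 3.79% in cones, again with overlap (2.50% to 2.98% and 2.53% to 4.28%). Rpl10, which joins the 60S subunit late in its maturation, was lowest in rods, at 0.424% to 0.818% over mice, and stood at 1.14% to 1.29% in bipolar cells and 1.13% to 1.45% in amacrine cells, so that no rod value reached those of the other two. The stalk proteins went different ways. Rplp0 had 1.00% in cones and 1.89% in amacrine cells, and Rplp1 1.54% in bipolar cells and 2.33% in Müller glia. The mice of the classes compared did not overlap for these genes.

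The first comparison asked how the retina of Phase I ROP mice differed from that of control mice. Ribosomal protein genes fell together in bipolar and amacrine cells. UMIs were summed per mouse and class, scaled by TMM and tested with edgeR's quasi-likelihood test at an adjusted p under 0.05 (Benjamini-Hochberg over all genes tested), and log2 fold changes are Phase I ROP over control ± SE, with n = 3 mice in each group. In bipolar cells 82 of 85 genes tested were lower, where 23.9% of all genes tested were called lower, and the median log2 fold change was -0.71 against 0.02 for all genes. In amacrine cells 83 of 85 were lower, against 20.5% of all genes, with a median of -0.75 against 0.02 for all genes. The 3 Phase I ROP mice lay below the 3 control mice for 82 of 85 genes in each of the 2 classes, against 28.1% of all genes in bipolar cells and 24.7% in amacrine cells. Both subunits took part, with 46 of 47 large-subunit genes, 3 of 3 stalk genes and 33 of 35 small-subunit genes called lower in bipolar cells, and 47 of 47, 3 of 3 and 33 of 35 in amacrine cells.

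Rods, cones and Müller glia showed less. In rods 14 of 85 genes were called lower, a share below the 20.7% of all genes, with a median of -0.35 against 0.03 for all genes. In cones 9 of 82 were lower, against 7.90% of all genes, with a median of -0.35 against 0.10 for all genes. In Müller glia 1 of 83 was lower, against 5.03% of all genes, with a median of -0.18 against 0.00 for all genes. Mice did not overlap, with Phase I ROP lower, for 25 genes in rods, 19 in cones and 21 in Müller glia, where 24.4%, 14.6% and 15.7% of all genes did so. Higher calls came only in cones and under other settings, given below. In the fits described here no ribosomal protein gene was called higher in any class by edgeR, and none by DESeq2. None had an unadjusted p under 0.05 in that direction by edgeR in any of the 5 classes. By contrast, the share of all genes called higher was 21.3% for bipolar, 18.3% for amacrine, 20.4% for rod, 10.9% for cone and 5.81% for Müller sums.

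**Figure D2:**
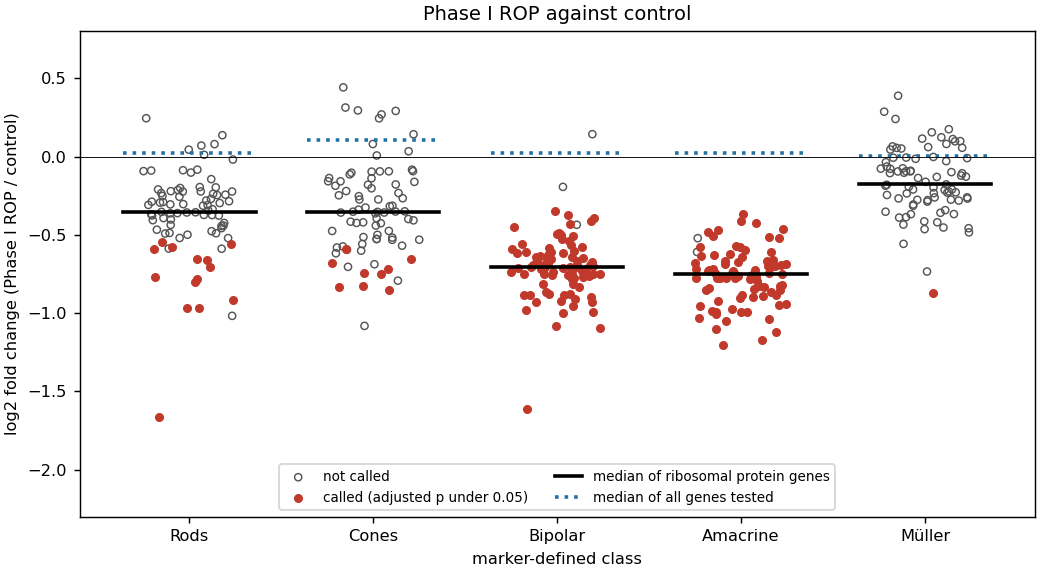
Log2 fold change of each ribosomal protein gene (vertical axis, Phase I ROP over control) in 5 classes (horizontal axis), filled red where called at an adjusted p under 0.05 and open where not, with the median of the ribosomal protein genes (black line) and of all genes tested (dotted line). The called genes number 82 and 83 in bipolar and amacrine cells, 14 in rods, 9 in cones and 1 in Müller glia, and all lie below 0 (Rps27l in cones, at 1.37 and not called, lies above the plotted range).

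Scaling sets where zero lies. In bipolar cells, 62 mitochondrial and small structured RNAs summed to 90379 to 104507 CPM in the controls and 30316 to 74014 CPM in Phase I ROP. With totals alone, and no scaling factors, the median of all genes moved up to 0.45 in bipolar cells, 0.37 in amacrine cells, 0.30 in rods, 0.42 in cones and 0.16 in Müller glia. The median of the ribosomal protein genes was then -0.28, -0.39, -0.07, -0.03 and -0.02 in the same order, and 29, 54, 3, 0 and 0 of them were called lower. In cones 1 gene, Rps27, was then called higher. A scaling factor moves all genes of a library alike. The distance between the ribosomal protein genes and all genes is therefore kept by construction and is no separate result. It was 0.77 with and 0.77 without scaling factors in amacrine cells, and 0.73 and 0.73 in bipolar cells. Folds below are relative to most genes of the class. With factors by median of ratios or from other genes only, 82 and 83 genes were called in bipolar and amacrine cells.

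**Figure D3:**
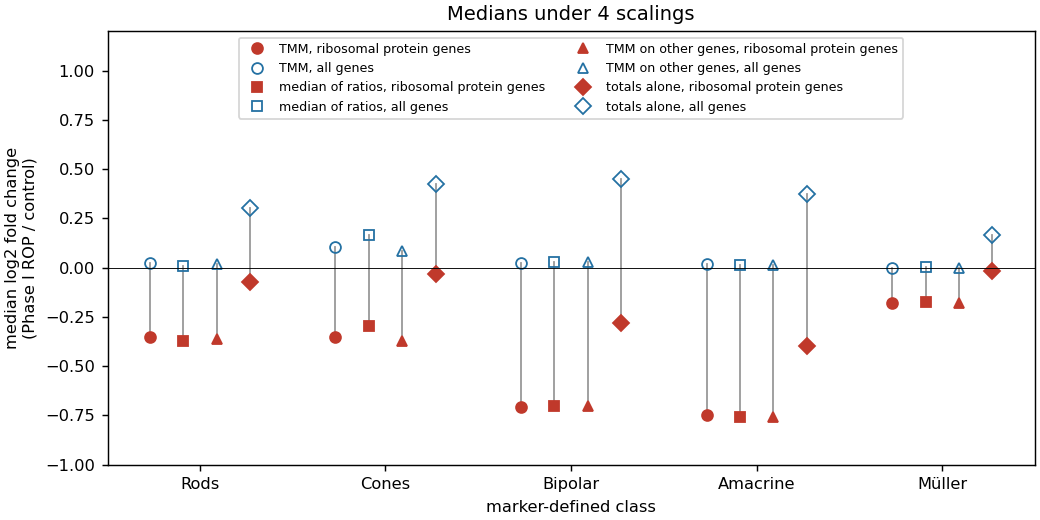
Median log2 fold change (vertical axis, Phase I ROP over control) of the ribosomal protein genes (filled red) and of all genes tested (open blue) in 5 classes (horizontal axis) under 4 scalings, joined by a grey line. With totals alone both medians lie higher, at -0.28 and 0.45 in bipolar cells. The gap between them is about the same as with TMM by construction, since scaling factors move all genes alike.

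Other quantities moved with these groups, and their part in the result was not tested. Dissociation response genes, a list of 20 immediate early and heat shock genes, were called higher in Phase I ROP for 9 of 10 tested in bipolar cells, all 14 of 14 in amacrine cells and in rods, 10 of 11 in cones and 14 of 17 in Müller glia. The shares of all genes called higher were 21.3% in bipolar cells, 18.3% in amacrine cells, 20.4% in rods, 10.9% in cones and 5.81% in Müller glia. The summed level of the 20 genes in bipolar cells was 219 to 281 CPM in the controls and 1249.9 to 1279 CPM in Phase I ROP, and in amacrine cells 289 to 428 and 2902 to 3700.0 CPM. The 12 rod markers summed to 979 to 1668 CPM in bipolar cells of the controls and 1886 to 2860.0 CPM in those of Phase I ROP, and to 382 to 472 and 861 to 1359 CPM in amacrine cells. In the summed controls the dissociation genes Egr3 (bipolar cells) and Atf3 (amacrine cells) were at 0, as were 2 of the 20 in rods, 7 in cones and 3 in Müller glia. A gene at 0 in the controls can pass the filter on low counts only through the Phase I ROP mice. The counts of calls above therefore do not weigh both directions alike. No rod marker was at 0 in bipolar or amacrine cells of either group. Without mitochondrially encoded genes and small structured RNAs in the counts, 82 genes in bipolar cells and 83 in amacrine cells were called lower. With sums thinned to equal depth the numbers were 80 and 81. Fewer RNAs of these genes per cell and another mix of cell subtypes within a class cannot be told apart.

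Large-subunit genes among the largest decreases were Rpl28 in bipolar cells and Rpl35 in amacrine cells, named after their values were seen. Rpl28 was at 663, 625 and 844 CPM in the control mice and 376, 379.6 and 315 CPM in the Phase I ROP mice in bipolar cells, where the groups lay apart (-0.996 ± 0.14, adjusted p = 9.33e-05). Rpl35, which carries the longest of the tracts printed above, was at 462, 418 and 458 CPM in the control mice and 227, 230.0 and 190.4 CPM in the Phase I ROP mice in amacrine cells, again with no overlap (-1.05 ± 0.13, adjusted p = 3.56e-05).

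Among the small-subunit genes, Rps3a1, whose protein lies near the exit of the messenger RNA, fell most in bipolar cells of the genes annotated as coding. It measured 1481, 1351 and 1597 CPM in the control mice and 736, 675 and 662 CPM in the Phase I ROP mice. The mice of the groups did not overlap, and the log2 fold change was -1.10 ± 0.12 (adjusted p = 8.57e-06). In amacrine cells it fell by a similar size, -1.04 ± 0.14 (adjusted p = 7.20e-05). Its copy Rps3a3, a processed pseudogene at chr13:108670603-108671397 with a near identical 3′ end, was at 286, 313 and 247 CPM in the control mice and 136, 135 and 129 CPM in the Phase I ROP mice in bipolar cells, -1.08 ± 0.15 on the log2 scale (adjusted p = 8.67e-05), and -1.10 ± 0.15 in amacrine cells (adjusted p = 9.47e-05). With the UMIs of pseudogenes and copies added to the parent gene, Rps3a1 was at -1.08 in bipolar cells and was called.

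Rps4l, on chromosome 6 (chr6:148354656-148355598), had the lowest fold of the 86 genes in rods and bipolar cells. It is annotated as a transcribed processed pseudogene, and its coding relatives include the X-linked Rps4x. In rods it was at 65.0, 58.7 and 44.8 CPM in the control mice and 16.4, 23.8 and 13.2 CPM in the Phase I ROP mice, in bipolar cells at 75.97, 67.1 and 74.7 CPM in the control mice and 21.3, 28.0 and 21.9 CPM in the Phase I ROP mice, and in amacrine cells at 96.6, 76.5 and 119 CPM in the control mice and 48.1, 46.6 and 34.4 CPM in the Phase I ROP mice. In the 3 classes no Phase I ROP mouse reached a control mouse, with log2 fold changes of -1.66 ± 0.40 (adjusted p = 0.00253), -1.61 ± 0.27 (adjusted p = 2.85e-04) and -1.17 ± 0.22 (adjusted p = 9.87e-04). Rps4x, a 40S protein at a far higher level, was called lower in 4 classes, with log2 fold changes of -0.995 ± 0.12 in amacrine cells, -0.93 ± 0.11 in bipolar cells, -0.78 ± 0.22 in rods and -0.66 ± 0.23 in cones (adjusted p = 2.54e-05, 2.74e-05, 0.00790 and 0.0446). In Müller glia it was at -0.28 ± 0.16 (adjusted p = 0.289).

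The stalk of the 60S subunit, built by Rplp0 with pairs of Rplp1 and Rplp2, recruits the translation factors that hydrolyse GTP. Rplp2 measured 642, 625 and 712 CPM in the control mice and 309, 322 and 279 CPM in the Phase I ROP mice in amacrine cells. This was the largest decrease of a coding gene in that class whose mice did not overlap, at -1.12 ± 0.12 (adjusted p = 1.49e-05), and in bipolar cells it was lower as well (-0.90 ± 0.12, adjusted p = 4.36e-05). Rplp0 was at 917, 700.2 and 1149 CPM in the control mice and 549, 451 and 468 CPM in the Phase I ROP mice in rods. It was called lower in rods (-0.92 ± 0.23, adjusted p = 0.00343), bipolar cells (-0.88 ± 0.14, adjusted p = 2.17e-04), amacrine cells (-0.90 ± 0.14, adjusted p = 2.11e-04) and cones (-0.86 ± 0.26, adjusted p = 0.0241), although in cones 1 control mouse at 413 CPM lay among the Phase I ROP mice. Rplp1 was called lower in cones, bipolar cells and amacrine cells (-0.68 ± 0.22, -0.95 ± 0.14 and -0.99 ± 0.13, adjusted p = 0.0329, 1.22e-04 and 6.52e-05). None of the 3 stalk genes was called in Müller glia, where Rplp0 was at -0.21 ± 0.19, Rplp1 at -0.45 ± 0.17 and Rplp2 at -0.35 ± 0.16 (adjusted p = 0.500, 0.104 and 0.163), with unadjusted p-values under 0.05 for Rplp1 and Rplp2.

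**Figure D4:**
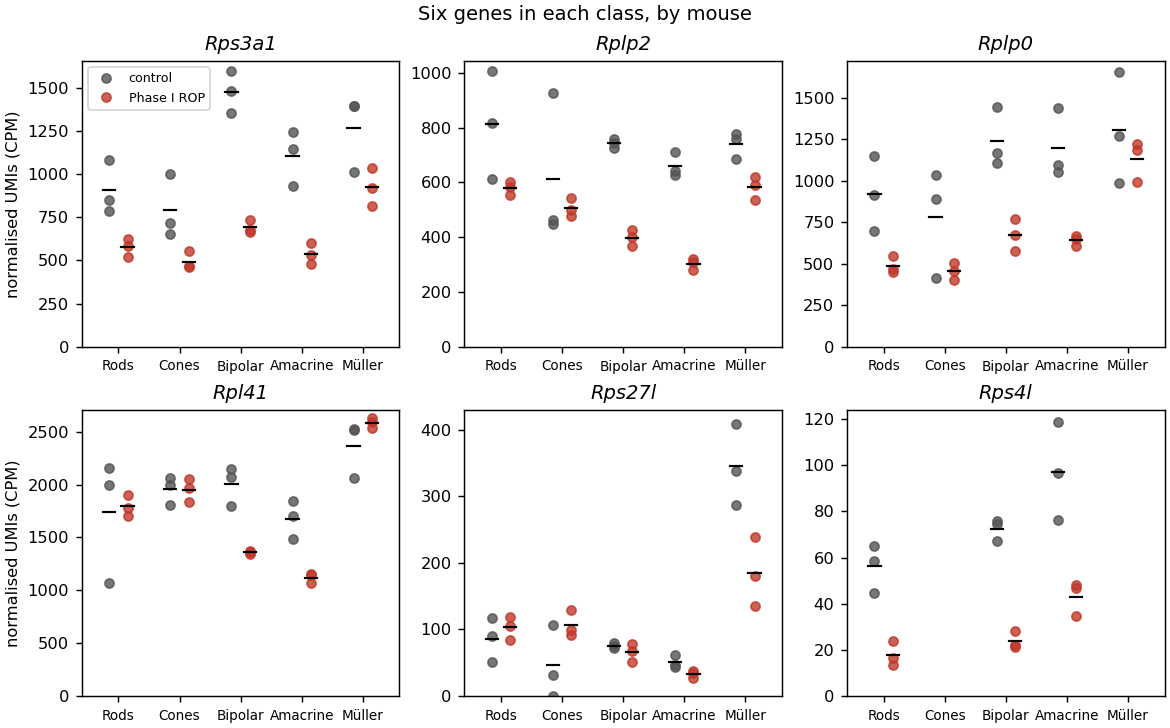
Normalised UMIs (vertical axes, CPM on the TMM scale) of Rps3a1, Rplp2, Rplp0, Rpl41, Rps27l and Rps4l in each class (horizontal axes) of the 3 control mice (grey) and 3 Phase I ROP mice (red), with group means (black lines). For Rps3a1, Rplp2, Rplp0, Rpl41 and Rps4l the groups are apart in bipolar and amacrine cells, and Rpl41 lies at similar levels in rods and cones. Rps27l is apart in Müller glia and in amacrine cells, where it was not called. Rpl41 is apart in Müller glia as well, with Phase I ROP higher, and was not called there. Rps4l was not tested in cones and Müller glia.

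Rps6, the 40S protein that S6 kinases phosphorylate downstream of mTOR, was at 398, 363 and 407 CPM in the control mice and 199, 202 and 204 CPM in the Phase I ROP mice in amacrine cells. The groups were apart, at -0.95 ± 0.12 (adjusted p = 5.83e-05), and in bipolar cells Rps6 was also lower (-0.82 ± 0.14, adjusted p = 2.89e-04), while in rods it was at -0.09 ± 0.21 (adjusted p = 0.746). Rpl5 and Rpl11, which with 5S ribosomal RNA bind and restrain Mdm2 when ribosome assembly fails, fell in bipolar cells (-0.93 ± 0.12 and -0.98 ± 0.13) and in amacrine cells (-0.94 ± 0.12 and -0.89 ± 0.12, adjusted p = 3.97e-05, 3.77e-05, 4.76e-05 and 8.82e-05 in this order). Rps19, needed for 40S maturation and mutated in Diamond-Blackfan anaemia, moved less. It was at 827, 801 and 920.2 CPM in the control mice and 676, 696 and 633 CPM in the Phase I ROP mice in bipolar cells (-0.35 ± 0.12, adjusted p = 0.0255) and at -0.47 ± 0.12 in amacrine cells (adjusted p = 0.00722), and no call was made in cones (0.29 ± 0.29, adjusted p = 0.513) or Müller glia (0.24 ± 0.17, adjusted p = 0.389).

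Genes at the highest level took part in the decrease. In bipolar cells Rpl41 was at 2069, 1798 and 2151 CPM in the control mice and 1376, 1359 and 1341 CPM in the Phase I ROP mice, and these did not overlap (-0.56 ± 0.12, adjusted p = 0.00180). Rps14, Rps24, Rpl4 and Rps28 had log2 fold changes of -0.49, -0.61, -0.60 and -0.54 in bipolar cells (adjusted p = 0.00785, 7.83e-04, 0.00104 and 0.00393) and of -0.58, -0.61, -0.83 and -0.52 in amacrine cells (adjusted p = 0.00293, 0.00201, 1.07e-04 and 0.00934). None of the 5 was called in rods, cones or Müller glia, where Rpl4 in cones came nearest (-0.51 ± 0.22, adjusted p = 0.0936).

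Some paralogs and copies were not called where the genes they resemble were. In bipolar cells these were the low-level paralogs Rpl7l1 (0.14 ± 0.25, adjusted p = 0.665) and Rps27l (-0.19 ± 0.23, adjusted p = 0.502) and the pseudogene Rps12l1 (-0.44 ± 0.18, adjusted p = 0.0597). In amacrine cells they were Rps27l (-0.61 ± 0.25, adjusted p = 0.0671) and Rps12l1 (-0.52 ± 0.20, adjusted p = 0.0540). All 85 genes were lower there at an unadjusted p under 0.05 by edgeR, these included. The coding partners Rpl7, Rps27 and Rps12 were called lower in bipolar cells (-0.69 ± 0.12, -0.43 ± 0.12 and -0.61 ± 0.11, adjusted p = 3.74e-04, 0.00972 and 7.57e-04). In amacrine cells Rps27 was called at -0.47 ± 0.13 (adjusted p = 0.0118), a smaller decrease than that of Rps27l. Rpl22l1 and Rpl22, which are known to regulate each other, both fell, with log2 fold changes of -0.65 and -0.58 in bipolar cells (adjusted p = 0.00375 and 0.00810) and -0.70 and -0.41 in amacrine cells (adjusted p = 0.00123 and 0.0333). Rpl32l, at the lowest level of the pseudogenes, was called in amacrine cells (-1.204 ± 0.45, adjusted p = 0.0452) although its mice overlapped and in bipolar cells (-0.91 ± 0.34, adjusted p = 0.0417) with no overlap, and Rps3a2 in bipolar cells (-0.99 ± 0.12, adjusted p = 2.23e-05, named after its value was seen). The difference between a paralog and its partner was not tested.

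Müller glia gave a single call, Rps27l. It measured 287, 409 and 338 CPM in the control mice and 238, 135 and 180.3 CPM in the Phase I ROP mice. No Phase I ROP mouse reached the lowest control mouse, and the log2 fold change was -0.87 ± 0.25 (adjusted p = 0.0369), while Rps27 was at 0.15 ± 0.18 (adjusted p = 0.603). The level of Rps27l was higher in Müller glia than in the other 4 classes in each of these 6 mice. The call was lost with DESeq2, with totals alone and when any 1 of 5 of the 6 mice was left out, all but Phase I ROP mouse 1.

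Rods had 14 called genes, and the 3 largest decreases whose mice did not overlap were those of Rps4l, Rpl7l1 and Rpl10. Rpl7l1 was at 58.2, 67.1 and 81.0 CPM in the control mice and 40.5, 29.8 and 35.3 CPM in the Phase I ROP mice. It was lower at -0.97 ± 0.32 (adjusted p = 0.0214), a call lost without control mouse 3, without Phase I ROP mouse 2 or 3, with totals alone and under 4 further settings (no filter, more than 500 genes, clusters led by a marker, thinned sums). Rpl10 measured 489, 382 and 467 CPM in the control mice and 248, 207 and 230.3 CPM in the Phase I ROP mice, which did not overlap (-0.97 ± 0.21, adjusted p = 0.00123). Rpl3, which shapes the peptidyl transferase centre, was also lower (-0.80 ± 0.22, adjusted p = 0.00673). The number of rod calls rested on single libraries. It was 63 without control mouse 2, whose ribosomal share was the lowest (of all 9218 genes, 3626 were called, 1718 of them higher). Without control mice 1 and 3 and Phase I ROP mice 1, 2 and 3 it was 8, 4, 8, 3 and 4. It was 41 with only those rod clusters that had a rod marker among their 10 leading genes (of all 6659 genes, 2363 were called, 1252 of them higher). Without the filter on low counts it was 1, with a median of -0.01. Only at 63 and 41 was the share above that of all genes called lower. In the other settings given here it was below.

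Cones rested on few cells, with 13 to 46 per control mouse and 37038 to 92730 UMIs, against 96 to 134 cells in Phase I ROP mice and 212677 to 275963 UMIs. Rpl27, Rpl28 and Rpl39 were the called genes with the largest decreases and no overlap. Rpl27 was at 964, 722 and 894 CPM in the control mice and 414, 522 and 514 CPM in the Phase I ROP mice, Rpl28 at 357, 516 and 663 CPM in the control mice and 328, 324 and 263 CPM in the Phase I ROP mice and Rpl39, a small protein of the exit tunnel, at 857, 859.9 and 1156 CPM in the control mice and 593, 604 and 566 CPM in the Phase I ROP mice. Their log2 fold changes were -0.84 ± 0.23, -0.83 ± 0.28 and -0.75 ± 0.22 (adjusted p = 0.0143, 0.0411 and 0.0195). These calls did not hold throughout. DESeq2 called 2 genes, 2 were called with sums thinned to equal depth, both higher (Rpl26 and Rps27, named after their values were seen), and 0 to 13 when a mouse was left out, with 0 without control mouse 3, 1 without Phase I ROP mouse 2 or 3, 3 without control mouse 1 and 4 without Phase I ROP mouse 1. Of these counts only the 13, without control mouse 2, was above the share of all genes (of 5011, 649 were called, 365 of them higher).

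Whether the change differed between classes was tested directly, with the interaction of class and treatment and the mouse as a block. The change differed for 29 of 85 ribosomal protein genes (edgeR, adjusted p under 0.05), where 12.6% of all genes did. In this joint fit the log2 fold change was more negative in bipolar and in amacrine cells than in rods for all 29. It was so in Müller glia for 19 and in cones for 4. An unadjusted p under 0.05 was found for 60 of the 85, for 28 with totals alone and for 12 with factors by median of ratios. At this threshold all genes were not counted. The 5 genes with the smallest p were Rpl35a, Rps27, Rpl41, Rps7 and Rpl31. Their values by class come from the separate fits of each class, which were scaled apart. Müller glia and rods can therefore stand in another order than in the joint fit. There Müller glia were at -0.03, -0.20 and -0.14 relative to rods for Rpl35a, Rps27 and Rpl41. Rpl35a, a 60S protein, was at -0.74 in amacrine cells, -0.67 in bipolar cells, -0.04 in Müller glia, -0.20 in rods and 0.29 in cones (interaction adjusted p = 5.72e-04). Rps27 was at -0.47, -0.43, 0.15, 0.14 and 0.44 in the same order (5.83e-04). For Rpl41 the values were -0.58, -0.56, 0.12, 0.04 and 0.01 (0.00102), for Rps7 -0.76, -0.72, 0.08, -0.35 and -0.09 (0.00212) and for Rpl31 -0.97, -0.89, -0.46, -0.31 and -0.16 (0.00239). The number depended on the scaling. It was 22 for factors from other genes only (25.9%, against 11.7% of all genes) and 19 without cones (22.4%, against 10.8%). With totals alone it was 10 (11.8%), near the share of all genes (1387 of 12636), and with median of ratios 4 (4.71%), below the 11.5% of all genes. It also rested on single libraries. Without control mouse 1, 2 or 3 it was 24, 11 and 25 genes (28.2%, 12.9% and 29.4%, against 10.6%, 8.20% and 10.0% of all genes). Without Phase I ROP mouse 1 it was 17 (against 6.78% of all genes), without mouse 2 it was 3 (3.53%), below the share of all genes (764 of 13642), and without mouse 3 it was 5 (5.88%), near the 5.11% of all genes.

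Some genes of ribosome components do not carry a symbol of the rule, among them Rack1, Fau and Rpl36al, and these 3 were called lower in both bipolar and amacrine cells. Rpl36al fell in amacrine cells (-1.24 ± 0.15, from a mean of 279.7 to 118 CPM, adjusted p = 3.24e-05). Fau, whose product is cleaved to Rps30, went from 1013 to 511 CPM in bipolar cells (-0.99 ± 0.13, adjusted p = 4.56e-05). In rods the called gene was Rack1, a scaffold on the 40S subunit (-0.56 ± 0.21, adjusted p = 0.0395).

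Translation factors and other genes known for TOP messenger RNAs, 23 in the list, were called lower for 17 of 23 in amacrine cells, 16 of 23 in bipolar cells, 12 of 23 in rods, 4 of 20 in cones and 2 of 22 in Müller glia, and higher for 3 of 23 in rods. The shares of all genes called lower were those given above, 20.5%, 23.9%, 20.7%, 7.90% and 5.03% in this order. Naca, which binds nascent chains at the ribosome, was lower in bipolar cells (-1.21 ± 0.13, 1293 to 559 CPM, adjusted p = 5.59e-06) and in Müller glia (-0.90 ± 0.16, 985 to 524 CPM, adjusted p = 0.00274). In rods the elongation factor Eef1a2 had the largest decrease (-2.76 ± 0.42, 77.3 to 11.3 CPM, adjusted p = 3.61e-05). Eif3k, a subunit of initiation factor eIF3, led in amacrine cells (-1.34 ± 0.15, 231 to 91.3 CPM, adjusted p = 1.49e-05) and Eif3f in cones (-1.31 ± 0.41, 319.8 to 136 CPM, adjusted p = 0.0251).

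Ribosome biogenesis genes, 36 in the list, were called lower for 9 of 33 tested in amacrine cells, 7 of 31 in bipolar cells, 7 of 26 in rods, 1 of 9 in cones and 2 of 12 in Müller glia, and higher for 1 in rods and 1 in bipolar cells. These numbers are small and, in the first 3 classes, near the shares of all genes called lower (20.5%, 23.9% and 20.7%, with 7.90% in cones and 5.03% in Müller glia). Wdr12, part of the complex that matures the 60S subunit, was lower in rods (-1.84), cones (-2.06), bipolar cells (-2.03) and Müller glia (-1.81), with adjusted p = 3.61e-05, 0.00684, 1.03e-05 and 0.00357. Nop58, of the box C/D ribonucleoproteins that guide methylation of ribosomal RNA, fell in bipolar cells (-1.71, adjusted p = 2.63e-06) and amacrine cells (-1.14, adjusted p = 2.34e-04). Ubtf, a factor of RNA polymerase I, rose in bipolar cells (1.19, 31.7 to 72.1 CPM, adjusted p = 0.00305).

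Genes of mTOR, LARP1 and Myc control, 18 in the list, were called higher for 8 of 17 tested in amacrine cells, 6 of 16 in bipolar cells, 5 of 14 in rods, 1 of 5 in cones and 0 of 5 in Müller glia, where 18.3%, 21.3%, 20.4%, 10.9% and 5.81% of all genes were. Lower calls were made for 1 each in rods, bipolar cells and amacrine cells. Larp1 rose in bipolar cells (1.91, 14.3 to 54.6 CPM, adjusted p = 0.00136) and amacrine cells (1.46, 24.9 to 68.7 CPM, adjusted p = 6.74e-04). Mycn rose in both as well (1.94 and 2.45, adjusted p = 5.23e-05 and 6.04e-05). In rods Eif4ebp2 rose (2.22, adjusted p = 4.83e-04) and Eif4ebp1 fell (-1.504, adjusted p = 0.00980), both encoding repressors of the cap-binding factor eIF4E that mTOR inactivates.

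The second comparison asked whether the diet of the dams made a difference in Phase I ROP. No ribosomal protein gene was called in any class by edgeR or by DESeq2. Of all genes tested, edgeR called 0.0158% (2 of 12664) in rods and 0 in the other 4 classes, and DESeq2 called 40 in rods, 7 in amacrine cells and 2 each in cones, bipolar cells and Müller glia. At an unadjusted p under 0.05 by edgeR there were 8 of 85 ribosomal protein genes in rods (9.41%), 4 in cones (4.71%), 3 in amacrine cells (3.53%), 1 in Müller glia (1.18%) and 0 in bipolar cells, and these shares lie below the 10.9%, 8.03%, 9.89%, 3.56% and 4.21% of all genes in the same order. Rods of the ω-3 mice held 4096 to 5073 CPM of the 20 dissociation response genes and those of the ω-6 mice 3247 to 3492 CPM, and amacrine cells held 2242 to 2483 and 1014 to 1797 CPM of the 12 rod markers, with none of either list at 0. The part of these differences in the values below was not tested. With 2 and 3 mice a small shift cannot be told from the spread between mice.

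The median log2 fold change, ω-6 over ω-3, was 0.20 in rods (0.02 for all genes), with 83 of 85 genes above 0, and 57 of 85 had all ω-6 mice above both ω-3 mice, against 14.6% of all genes. In amacrine cells the median was 0.12 (0.01 for all genes), with 74 above 0 and 25 not overlapping, against 14.5% of all genes. Cones had 0.10 (0.00 for all genes), 64 above 0 and 21 not overlapping, against 11.9%. In bipolar cells and Müller glia the medians were -0.04 and -0.07 (0.01 and 0.02 for all genes), with 31 and 25 genes above 0 and 1 and 1 not overlapping in this direction, against 9.83% and 9.01%. In the other direction, with all ω-6 mice below both ω-3 mice, there were 10 of 85 in Müller glia (against 9.99% of all genes), 5 in cones (13.1%), 2 in bipolar cells (9.99%), 1 in rods (14.0%) and 0 in amacrine cells (14.0%). Genes of 1 class share libraries and are not independent, so that a common sign counts as 1 shift per class and not as many. With totals alone the medians were 0.07 in rods, 0.04 in amacrine cells, 0.06 in cones, -0.09 in bipolar cells and -0.14 in Müller glia, against -0.11, -0.07, -0.04, -0.05 and -0.05 for all genes.

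**Figure D5:**
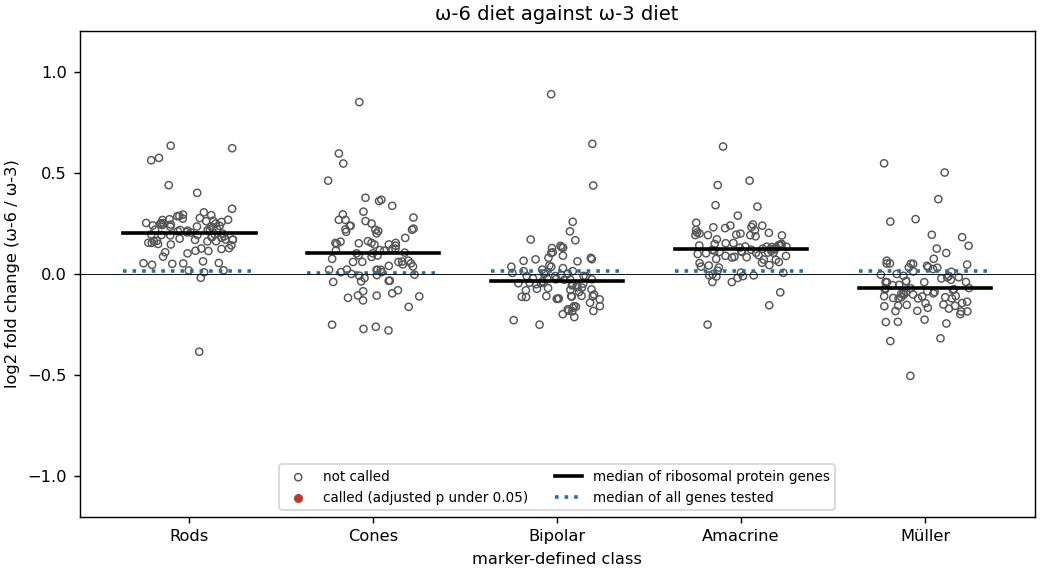
Log2 fold change of each ribosomal protein gene (vertical axis, ω-6 diet over ω-3 diet) in 5 classes (horizontal axis), with the median of the ribosomal protein genes (black line) and of all genes tested (dotted line). All points are open, since none was called, and the medians run from -0.07 in Müller glia to 0.20 in rods.

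In rods the smallest p-values belonged to Rpl6l, Rps4x and Rps3a3. Rpl6l, a processed pseudogene of Rpl6, was at 74.0 and 69.0 CPM on the ω-3 diet and 123, 102 and 107 CPM on the ω-6 diet (0.63 ± 0.16, adjusted p = 0.342), and Rps4x at 616 and 575 CPM on the ω-3 diet and 747, 810.1 and 803 CPM on the ω-6 diet (0.40 ± 0.13, adjusted p = 0.382). The mice of the diets did not overlap for these genes, nor for Rps3a3 (0.44 ± 0.18, adjusted p = 0.427). In amacrine cells Rpl6l was at 85.9 and 77.9 CPM on the ω-3 diet and 148, 109.9 and 123 CPM on the ω-6 diet (0.63 ± 0.19, adjusted p = 0.460), followed by Rpl36a (0.34 ± 0.15) and Rps24 (0.29 ± 0.13), both with an adjusted p of 0.501. In cones Rps27l was at 62.8 and 69.0 CPM on the ω-3 diet and 135, 109 and 114 CPM on the ω-6 diet (0.85 ± 0.24, adjusted p = 0.537), followed by Rpl36a (0.55 ± 0.19, adjusted p = 0.585) and Rpl27 (0.38 ± 0.16, adjusted p = 0.609).

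Bipolar cells and Müller glia held the values furthest from a call. Rps4l, Rpl32l and Rpl7l1 had the smallest p-values in bipolar cells, at 0.64 ± 0.33, 0.89 ± 0.47 and 0.44 ± 0.29 (adjusted p = 0.991 for each), and all 3 are genes of low level. In Müller glia Rps15, a 40S protein near the decoding site, was at 601 and 598 CPM on the ω-3 diet and 518, 408 and 346 CPM on the ω-6 diet (-0.50 ± 0.22, adjusted p = 0.994), with the ω-6 mice lower and no overlap. Rplp1 was at -0.33 ± 0.17 and Rpl32 at -0.32 ± 0.21 there (adjusted p = 0.994 for both). The diet change differed between classes for 0 of 85 genes by edgeR, where 0.0395% of all genes differed. An unadjusted p under 0.05 was found for 6 (0 without cones), a count not made over all genes.

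In the lists of translation factors, biogenesis, mTOR control and dissociation response no gene was called between the diets by edgeR. Over the 5 classes, unadjusted p-values under 0.05 by edgeR were found for 17 of 88 tests of dissociation response genes, 11 of 112 of translation factors, 9 of 163 of biogenesis genes and 3 of 77 of mTOR, LARP1 and Myc genes. Of all genes, 3.56% (Müller glia) to 10.9% (rods) had such a p-value in a class. The share of the dissociation response genes lay above this range and the other 3 within it. The same genes and mice enter in each class, so that these tests are not independent.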

How the data were processed

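Single-cell libraries of 11 retinas were measured. The authors made the deposited counts with umis in bcbio-nextgen from reads mapped with Rapmap to the GRCm38 transcripts, as whole UMI counts per gene and cell that were not normalised, pooled in 1 table of the series. How reads that fit several copies of a ribosomal protein gene were shared out is not given in the sources used here.

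Cells with more than 300 genes (20033) were clustered in Seurat 5.3.0 (2000 variable genes, 75 components, resolution 0.2), and clusters were named from canonical markers. Scrublet (scanpy 1.11.5) marked 0.359% of cells as doublets, too few to have worked, so that removal of the 5% of cells with the highest scores was an alternative. Counts were summed per mouse and class, filtered with filterByExpr and tested with edgeR 4.0.16 in R 4.3.3 (TMM, quasi-likelihood, Benjamini-Hochberg over all genes tested, 0.05). A mouse is 1 sample, and p-values measure the spread between mice. DESeq2 1.42.0, other scalings, filters, classes, depths and leaving out each mouse were alternatives. Totals with no scaling factors, pseudogenes and copies added to the parent gene, coding genes only, and leaving out each mouse in the interaction test were added after the data were seen. The scripts were tested on simulated data. Near-identical 3′ ends were found with blastn 2.17.0. Mice of control and Phase I ROP that share a replicate number were not paired by it, since correlations of their deviations ran from -0.055 to 0.144.

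The genes and lists were chosen with earlier results of these data known. Named were paralogs and their partners, the stalk, Rps6, Rpl5, Rpl11 and Rps19, the 5 highest and 5 lowest in level, per class the 3 largest called changes in each direction whose mice did not overlap, the 3 smallest p-values per class for the diets, the 5 smallest p-values of the interaction, the 5 widest ranges of pool share and, from other lists, called genes among the 3 largest changes. Exceptions are marked in the text. Results of 1 further list are not reported here as counts.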

Additional observations from a re-analysis of the deposited data

Results flagged for a closer look

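The change from control to Phase I ROP differed between the 5 classes for 29 of 85 ribosomal protein genes, by the edgeR interaction test of class and treatment with the mouse as a block. In this joint fit the log2 fold change was more negative in bipolar and in amacrine cells than in rods for all 29. The 29 were 34.1% of the ribosomal protein genes tested, where 12.6% of all genes differed. The number was 19 without cones and 22 with scaling factors from other genes only. It was 10 (11.8%) with totals alone, near the share of all genes (1387 of 12636), and 4 (4.71%) with median-of-ratios scaling, below the 11.5% of all genes. When 1 mouse was left out it was 3 to 25. It was lowest without Phase I ROP mouse 2, at 3 (3.53%, below the share of all genes, 764 of 13642), and was 5 without mouse 3 (5.88%, against 5.11%).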

How the results depend on the processing

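In bipolar and amacrine cells the ribosomal protein genes called lower numbered 77 to 81 and 77 to 82 when 1 mouse was left out (medians -0.77 to -0.66 and -0.83 to -0.70), and 29 (median -0.28) and 54 (-0.39) with totals alone. In rods the number was 3 to 63 when 1 mouse was left out (medians -0.52 to -0.23), 1 with no filter on low counts (-0.013), 41 with clusters led by a marker and 3 with totals alone (-0.071). Of these only 63, without control mouse 2, and 41 were above the share of all genes called lower. In cones it was 0 to 13 when 1 mouse was left out (medians -0.46 to -0.070), 2 with DESeq2, 0 with no filter (-0.087), 3 with all 4 groups in 1 fit, 2 with sums thinned to equal depth, both higher (-0.13), and 1 with totals alone, also higher (-0.031). Of the cone counts only 13, without control mouse 2, was above the share of all genes. In Müller glia it was 0 to 1 when 1 mouse was left out (medians -0.26 to -0.10), 0 with DESeq2 and with totals alone (-0.016), 2 with factors from other genes, with no filter and with copies merged, 3 with all 4 groups and 6 in cells with more than 500 genes. Above the share of all genes called lower were only the 6 (of all 4725 genes, 555 were called, 295 of them higher) and the 2 with no filter (of 21307, 681 were called, 341 of them higher). The cause of these changes was not tested. Thinning and the filter change how many genes enter, and leaving out a mouse how many samples do.

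Replicate numbers did not pair the mice of control and Phase I ROP. With the replicate number as a block, calls were 82 in amacrine cells, 83 in bipolar cells, 10 in rods, 2 in cones and 2 in Müller glia, and the median between diets in bipolar cells turned to 0.0033. The diets share only 2 numbers, with correlations of 0.047 to 0.281.

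Between the diets 0 ribosomal protein genes were called under the alternatives run, of which DESeq2 was one. The median in bipolar cells (-0.17 to 0.13 when 1 mouse was left out) was 0.13 without the first ω-3 mouse and 0.0064 with copies merged, and in Müller glia (-0.15 to 0.023) it was 0.023 without that mouse. It ran from 0.12 to 0.26 in rods, 0.05 to 0.18 in amacrine cells and 0.06 to 0.14 in cones when 1 mouse was left out, and was 0.070 in rods and 0.036 in amacrine cells with totals alone. The number of genes whose change differed between classes was 19 without cones, 4 with median-of-ratios scaling (4.71%, below 11.5% of all genes) and 10 with totals alone (11.8%, near 1387 of 12636), and 3 to 25 when 1 mouse was left out (3.53%, below 764 of 13642, at the lowest). For the diets it was 0 throughout.

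Without mitochondrial and small structured RNAs, the shares of control, Phase I ROP, ω-3 and ω-6 mice were 5.40%, 4.43%, 4.46% and 4.65% in cones, and the other means that moved by more than their SD were 5.52%, 5.08% and 5.45% in rods of Phase I ROP, ω-3 and ω-6 mice, 7.17%, 5.59% and 5.75% in bipolar cells of control, Phase I ROP and ω-6 mice, 5.69%, 3.98% and 4.16% in amacrine cells of control, Phase I ROP and ω-3 mice, and 6.35%, 5.91% and 6.02% in Müller glia of control, Phase I ROP and ω-6 mice. The ω-6 Müller share was 5.22% in cells with more than 500 genes. Cones had the fewest cells of the 5 classes in the control mice, 13 to 46.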
